A study of Sus scrofa with 60 samples.

Results

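Liver RNA from 9 sham-operated pigs given parenteral nutrition (PN) with a mixed lipid emulsion (MLE-sham) was compared with liver RNA from 10 sham-operated pigs given PN with a soy lipid emulsion (SLE-sham). These 19 of the 60 sequenced pigs were taken by their diet and surgery labels alone, and the comparison ran over every named gene that had enough counts. The pigs came from Landrace and Hampshire crosses, were delivered by cesarean section 1 day before term, and included males and females. Sham surgery opened the abdomen and handled the liver briefly, leaving the bile ducts open, and every pig then received a jugular catheter. Intralipid, an emulsion of soybean oil, was the lipid of the SLE-sham pigs, and SMOFlipid, which blends soybean oil, medium-chain triglycerides, olive oil and fish oil, was that of the MLE-sham pigs, both as the sole route of feeding until day 14. Levels in 12 sham pigs fed a milk replacer by tube (ENT-sham, who started on PN and moved gradually to full tube feeding over the first week) and in 8 MLE-BDL and 11 SLE-BDL pigs, whose cystic and common bile ducts were ligated, are given for reference.

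Lipid emulsions enter the blood as particles that lipoprotein lipase hydrolyses and that hepatocytes and liver macrophages take up. Soybean oil is rich in omega-6 fatty acids and plant sterols, and fish oil brings the long-chain omega-3 fatty acids. Macrophages that have taken up lipid or cell debris are known to make galectin 3, GPNMB, osteopontin and TREM2, and hepatocytes export phospholipid and sterols into bile through ABC transporters. The samples were pieces of whole liver, so fewer cells of a type and less RNA per cell cannot be told apart.

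Counts assigned to named genes ranged from 14469788 to 18897190 per library in these 19 pigs, with a median of 17243648. The share of the mitochondrial genome was 2.7% to 3.99%, with medians of 3.12% in MLE-sham and 3.535% in SLE-sham. The 10 genes with the most counts held a median of 22.24% of the counts in MLE-sham and 19.855% in SLE-sham. Levels are given in CPM, the count of a gene relative to the library size after TMM scaling. A 3-digit number in the pig identifiers, whose meaning the labels do not give, was unevenly spread: the 9 MLE-sham pigs carried 4 numbers that 5 SLE-sham pigs shared, and the other 5 SLE-sham pigs carried numbers that no MLE-sham pig had. SLE-sham replicates 9 and 10 carried the same identifier, but the Y-linked gene EIF1AY was at 25 CPM in replicate 9 and 0.256 CPM in replicate 10, and their counts differed by a chi-square of 34.2 per degree of freedom, within the range of other pairs, so both were kept. An ENT-sham library stood apart: replicate 2 differed from ENT-BDL replicate 1, a pig with ligated ducts, by a chi-square of 1.91 per degree of freedom, and no pair within MLE-sham or SLE-sham was below 16.8. The comparisons with ENT-sham are given with and without both libraries, a repeat chosen after seeing the data. EIF1AY exceeded 10 CPM in 2 of the 9 MLE-sham and 5 of the 10 SLE-sham pigs. The comparison was repeated with its level as a covariate, a setting chosen after seeing the data. In that fit 9 of the 41 genes named by rule no longer had an adjusted p under 0.05, and 32 kept their side of that threshold. The unshared numbers and the SLE-sham diet go together in the 5 SLE-sham pigs of unshared numbers, so the 2 cannot be told apart there. The comparison was repeated without these 5 pigs and with the number as a block.

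The libraries of the 2 diets lay apart on the first principal component, which held 12.7% of the variance of log2 CPM over 16210 genes. MLE-sham pigs had scores from -37.9 to 4.61 (mean -18.7 ± 14, SD, n = 9), and SLE-sham pigs had scores from -2.36 to 33.5 (mean 16.8 ± 11, SD, n = 10). Only 1 MLE-sham pig reached the SLE-sham range. The distance between the group means on components 1 and 2 was 36.4, with p = 3.25e-05 by an exact permutation test over all 92378 divisions of the 19 pigs. That test exchanges pigs freely across identifier numbers, although component 2 partly followed the number. Scores there were -41.7 to -14.7, -23.4 to -16.9 and 21.1 to 26 in 3 of the shared numbers, but -11 to 12.7 in the 4 pigs of the remaining one. They were 17.8 to 26 and -4.38 to 2.74 in the unshared numbers. With the 14 pigs of shared numbers alone the distance was 34.4, with an exact permutation p of 0.0155 for free exchange. With exchange only within a number, a test chosen after seeing the data, the exact permutation p was 0.00463, the smallest that its 216 divisions can give. On component 1 the MLE-sham mean lay below SLE-sham in each of the 4 shared numbers, with differences of -36.2, -33, -28.7 and -23.7.

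**Figure D1:**
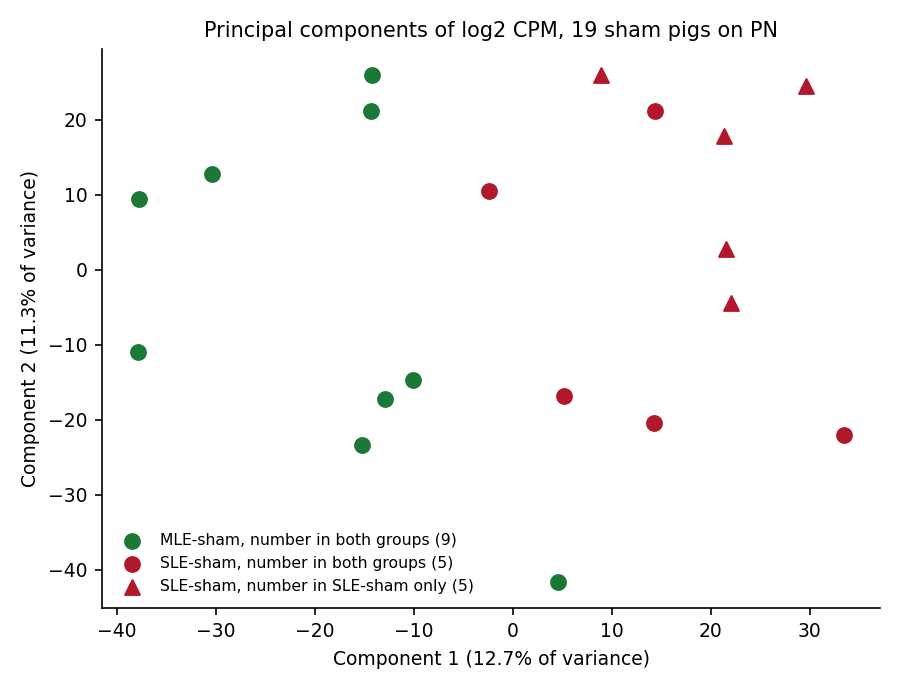
Scores of the 19 pigs on principal components 1 (x axis) and 2 (y axis) of log2 CPM, with the percent of variance on each axis. Circles are pigs whose identifier number occurs in both groups and triangles the 5 SLE-sham pigs of unshared numbers. MLE-sham pigs lie mostly to the left, at -37.9 to 4.61, and SLE-sham pigs to the right, at -2.36 to 33.5.

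A gene was called where its fold change exceeded 2 and its adjusted p was below 0.05 in edgeR's quasi-likelihood test with Benjamini-Hochberg adjustment, and 75 of 16210 tested genes were called, or 0.463%. More of them were lower in MLE-sham: 55 genes (0.339%) against 20 higher (0.123%). At any fold change 162 genes passed (0.999%), 102 of them lower (0.629%) and 60 higher (0.370%) in MLE-sham, and 1838 had an unadjusted p under 0.05 (11.3%). In what follows a gene that passed, or passed the threshold, had an adjusted p under 0.05 at any fold change. The fit was edgeR on all pigs unless another is named. Counts of list members that passed in DESeq2 have no share over all genes beside them, so nothing is read from them about a list. The 9 and 10 pigs did not overlap in CPM for 12 genes of the whole table (0.0740%), 5 of them among the 75. Without the 5 pigs of unshared numbers the call remained for 24 of the 75 genes and was made for 26 in all. Of the genes described below, GPNMB, LGALS3, LPL, TM4SF19, SPP1, SMPDL3A, SLC11A1, CTSD, CD36, FABP4, CPT1B, APOA4, ABCB4, PFKFB3, SERPINF1, ANKRD33 and GDPD2 had an adjusted p under 0.05 in that smaller comparison, and the others that passed in all 19 pigs did not. With the number as a block 65 genes were called, 49 of them among the 75. Of the genes described below, APOA4, FABP5, OLR1, ABCG5, IKBKE, ISG20, GFAP, CTH, CLDN1, UCN3, TNC and ATP2B3 did not pass with that block, with adjusted p from 0.0538 to 0.205.

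**Figure D2:**
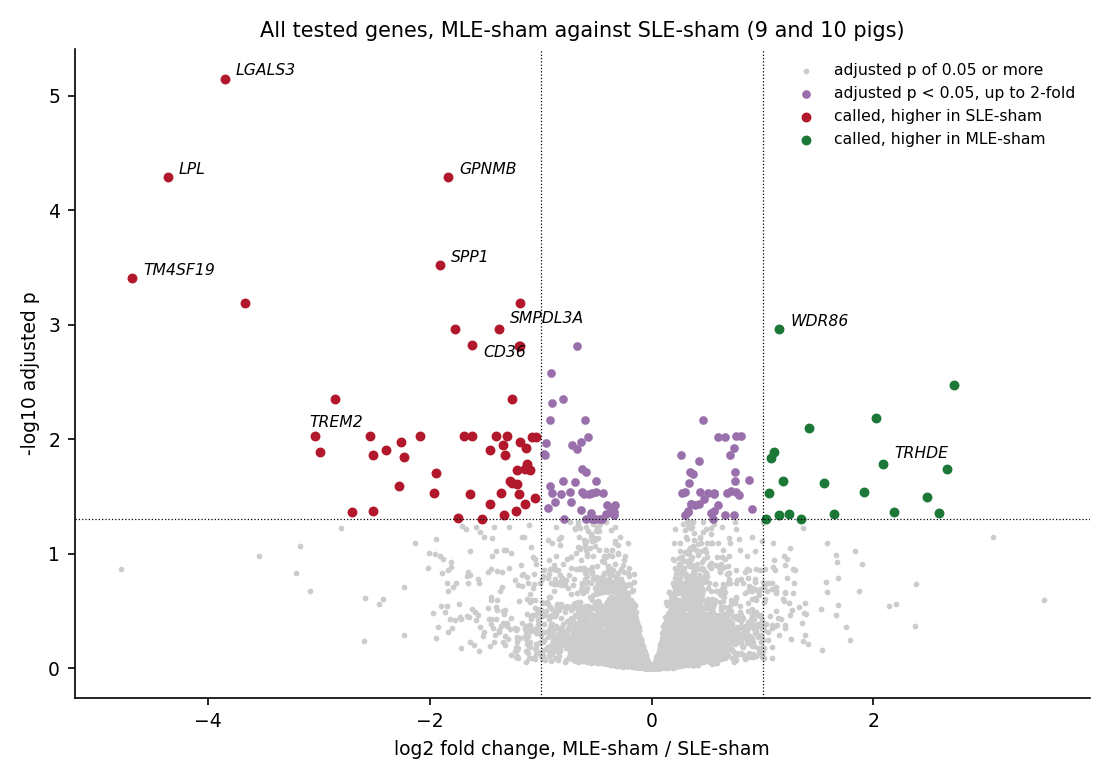
Log2 fold change of MLE-sham over SLE-sham (x axis) against -log10 of the adjusted p (y axis) for 16210 genes. Dotted lines mark an adjusted p of 0.05 and a fold change of 2. Among called genes 55 lie to the left (red, higher in SLE-sham) and 20 to the right (green), with LGALS3, LPL, GPNMB, TM4SF19 and SPP1 highest.

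The smallest adjusted p belonged to LGALS3, which encodes galectin 3, a sugar-binding protein made by activated macrophages (chromosome 1, 184478639 to 184496155, Sscrofa11.1). MLE-sham pigs had 1.02 CPM at the lowest, 1.56 at the median and 3.53 at the highest, and SLE-sham pigs had 3.37, 14.9 and 59.9 CPM. Of the SLE-sham pigs 9 of 10 lay above every MLE-sham pig, and replicate 9, at 3.37 CPM, fell just inside the MLE-sham range. The log2 fold change was -3.85 ± 0.51 (SE), with an adjusted p of 7.09e-06. It was -3.26 without the 5 pigs of unshared numbers (adjusted p = 0.00127), and it was negative within each shared number, from -1.96 to -4.42 log2 CPM.

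GPNMB, a membrane glycoprotein of lysosome-rich macrophages, separated the groups in every pig (chromosome 9, 92037428 to 92071501). Its lowest, median and highest levels were 40.7, 70.5 and 112 CPM in MLE-sham and 116, 241 and 468 CPM in SLE-sham. The groups did not overlap, and the log2 fold change was -1.83 ± 0.27 (SE, adjusted p = 5.11e-05). SPP1, which encodes the secreted phosphoprotein osteopontin, also did not overlap (chromosome 8, 131077786 to 131085334). It ranged from 20.6 over 30.1 to 42.8 CPM in MLE-sham and from 57.7 over 105 to 197 CPM in SLE-sham, with a log2 fold change of -1.91 ± 0.31 (adjusted p = 0.000302). Cholangiocytes also make SPP1, and their part in this difference was not tested. Of 19 tested cholangiocyte markers SPP1 was the single one past the threshold (2 in DESeq2 on the 19 pigs), and their median log2 fold change was -0.09. MMP7, a matrix protease of injured bile ducts that is not on that list, is given below. KRT7 had a log2 fold change of -0.75 ± 0.38 (adjusted p = 0.448), KRT19 of -0.57 ± 0.27 (0.407) and EPCAM of 0.15 ± 0.21 (0.872).

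TREM2, a lipid-sensing receptor of macrophages, was near the limit of detection in MLE-sham livers. Its 9 libraries held 14 counts in all, with 3 libraries at 0, against 144 counts in the 10 SLE-sham libraries. In CPM the MLE-sham pigs had 0 to 0.299 and the SLE-sham pigs 0.204 to 1.99, and 9 of 10 SLE-sham pigs exceeded all MLE-sham pigs. The log2 fold change was -3.03 ± 0.65 (adjusted p = 0.00929), and -2.50 with an adjusted p of 0.17 without the 5 pigs of unshared numbers. The scavenger receptor gene MSR1 was better covered, at 11.4, 16.1 and 22.8 CPM in MLE-sham and 18.3, 28.9 and 37.2 CPM in SLE-sham. It passed the test at a smaller fold, -0.79 ± 0.16 on the log2 scale (adjusted p = 0.00447, and 0.0632 without the 5 pigs of unshared numbers).

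These were 3 of the 26 tested genes on the list of Kupffer cell and macrophage markers, all lower in MLE-sham, and DESeq2 on the 19 pigs passed 5. The list as a whole had a median log2 fold change of -0.10, against 0.00 over all genes, and its summed level overlapped broadly, at 2452 to 3872 CPM in MLE-sham and 2615 to 3634 CPM in SLE-sham. Markers of resident Kupffer cells did not pass: CD163 had a log2 fold change of -0.08 ± 0.22 (adjusted p = 0.944), CD5L of -0.04 ± 0.18 (0.971), VSIG4 of -0.14 ± 0.14 (0.801) and CLEC4F of 0.30 ± 0.35 (0.833). The pan-macrophage lysosomal marker CD68 was at -0.30 ± 0.12 (0.255). MARCO, a further scavenger receptor, was at -0.90 ± 0.26 (0.081).

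SMPDL3A, a phosphodiesterase gene induced by sterols in macrophages, did not overlap between the groups, at 7.37, 10.6 and 19.7 CPM in MLE-sham and 20.7, 34.4 and 47.2 CPM in SLE-sham (log2 fold change -1.38 ± 0.25, adjusted p = 0.00109). Some genes that no list held were picked out because they had passed, so they are single values with no count behind them. The integrin ITGAX was lower in MLE-sham by a log2 fold change of -1.32 ± 0.30 (0.0138), the oxidised-LDL receptor OLR1 by -1.12 ± 0.26 (0.0163) and the metal transporter SLC11A1 by -1.20 ± 0.22 (0.00154). Among enzymes of the lysosome CTSD was at -0.60 ± 0.12 (0.00676), CTSH at -0.58 ± 0.13 (0.0096) and ACP5 at -0.90 ± 0.23 (0.0295), which did not pass in 8 of 19 fits that left out 1 pig. TM4SF19, a transmembrane 4 family gene, had the largest fitted fold of all called genes but rested on few counts: 2 in all MLE-sham libraries, 7 of them at 0, and 91 in SLE-sham. That is a ratio of 38.9 (95% exact interval 10.5 to 326, counting error only).

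Of the 16 tested neutrophil markers 15 had a fold below 0, with a median log2 fold change of -0.42, and their summed level was 42.7 to 106 CPM in MLE-sham and 64.3 to 115 CPM in SLE-sham. The part of such cells in the results above was not tested. T and NK cell, B cell, sinusoidal endothelial, erythroid and hepatocyte marker lists had no member past the threshold in edgeR, with medians from -0.16 to 0.16. Unadjusted p was under 0.05 for 2, 2, 1, 2 and 5 of their members, and DESeq2 passed 3 hepatocyte markers on all pigs and on the 19 pigs, 1 erythroid marker on the 19 pigs and none of the others.

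**Figure D3:**
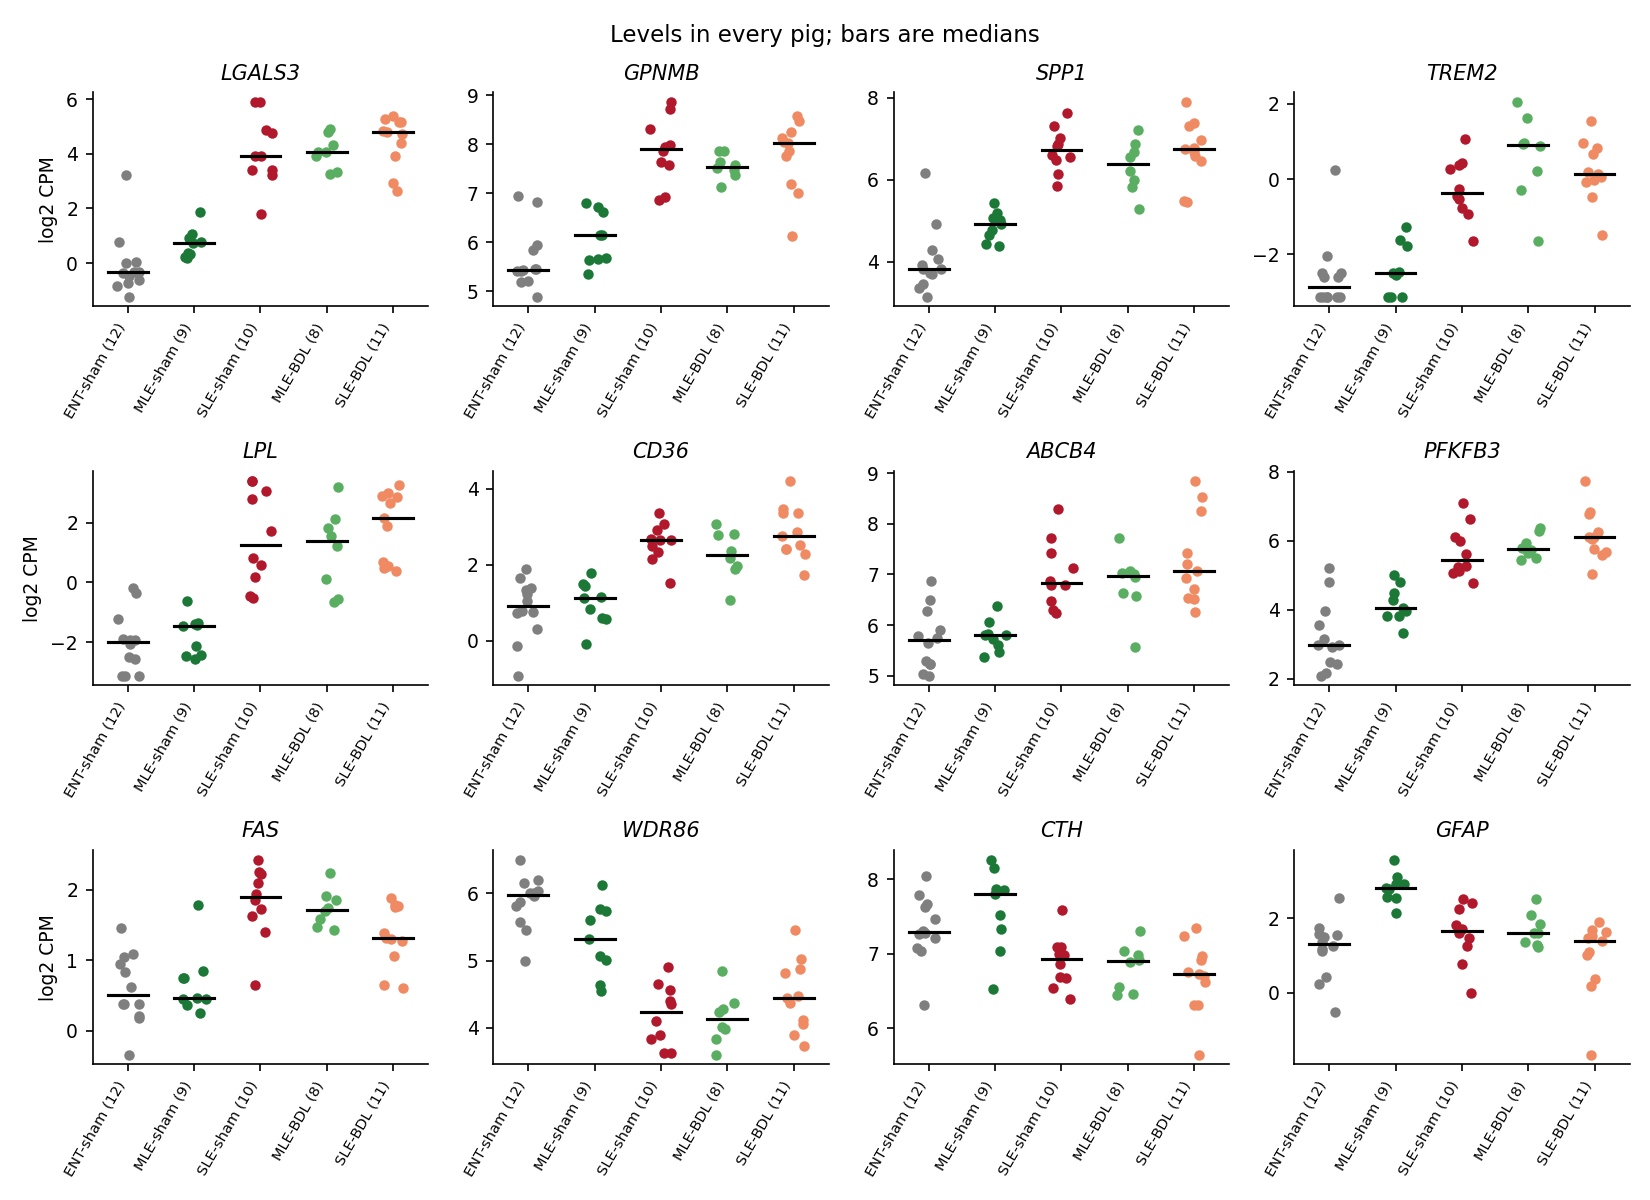
Log2 CPM (y axes, one scale per gene) of 12 genes in every pig of 5 groups, with the number of pigs in parentheses and bars at the medians. The first 9 genes are lower in MLE-sham than in SLE-sham and the last 3 higher, with GPNMB at 40.7 to 112 CPM against 116 to 468 CPM.

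LPL, the lipase that frees fatty acids from circulating triglyceride and is little made by adult hepatocytes, was close to the limit of detection in MLE-sham livers (chromosome 14, 4104761 to 4134964). The 9 MLE-sham libraries had 30 counts in all, at 0.0558, 0.25 and 0.538 CPM, against 749 counts at 0.581, 2.41 and 10.5 CPM in SLE-sham. No pig of one group reached the range of the other, and the log2 fold change was -4.36 ± 0.65 (adjusted p = 5.11e-05). CD36, the fatty acid translocase, stood at 0.834, 2.08 and 3.31 CPM in MLE-sham and 2.75, 6.18 and 10.1 CPM in SLE-sham. Only the lowest SLE-sham pig fell into the MLE-sham range, and the log2 fold change was -1.62 ± 0.30 (0.00151). FABP5, a cytosolic fatty acid carrier of macrophages and epithelia, had a log2 fold change of -1.33 ± 0.35 (0.0458), with 5 of 10 SLE-sham pigs above all MLE-sham pigs. Its call was lost in 13 of 19 fits that left out 1 pig. FABP4, the related carrier of adipocytes and macrophages, was named after its values were seen, with -2.40 ± 0.54 (0.0124).

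CD36 and FABP5 were the 2 members past the threshold, both lower, on the list of polyunsaturated fatty acid synthesis and transport. Of its 16 tested members 15 had a fold below 0 and the median was -0.29, and DESeq2 on the 19 pigs passed 5. The desaturase FADS1 was at 197, 307 and 441 CPM in MLE-sham and 286, 534 and 659 CPM in SLE-sham, with a log2 fold change of -0.68 ± 0.21 that missed the threshold (adjusted p = 0.0987). FADS2 had -0.30 ± 0.17 (0.524) and the elongases ELOVL2 and ELOVL5 had -0.27 ± 0.18 (0.63) and -0.15 ± 0.12 (0.691).

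On the list of fatty acid oxidation genes and PPARA targets, 2 of 42 tested members passed in edgeR on all pigs, both lower in MLE-sham. DESeq2 on the 19 pigs passed 12, a count with no share over all genes beside it. At an unadjusted p under 0.05 in edgeR 16 members were lower and 3 higher. ANGPTL4, a secreted inhibitor of LPL, had 18.8, 25.3 and 61.7 CPM in MLE-sham and 33, 64.4 and 105 CPM in SLE-sham (log2 fold change -1.23 ± 0.32, adjusted p = 0.0426). MLE-sham replicate 7, at 61.7 CPM, lay among the SLE-sham pigs, and the call was lost in 14 of 19 leave-one-out fits. CPT1B, the muscle form of the carnitine palmitoyltransferase that admits fatty acids to mitochondria, had 4.43, 4.99 and 6.93 CPM in MLE-sham and 4.46, 9.87 and 28.3 CPM in SLE-sham (-1.13 ± 0.25, 0.0119). It lost the call without SLE-sham replicate 6, at -0.87 (0.0631). The liver form CPT1A had -0.38 ± 0.15 (0.277) and PPARA itself had 0.11 ± 0.13 (0.828). The list median was -0.19, with 30 of 42 folds below 0.

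LPL and APOA4 were the 2 of 32 members past the threshold on the list of lipoproteins and triglyceride hydrolysis, whose median was 0.01, and DESeq2 on the 19 pigs passed 6. APOA4, an apolipoprotein induced by fat absorption, had 5.06, 6.25 and 10.2 CPM in MLE-sham and 6.57, 11.7 and 156 CPM in SLE-sham, a log2 fold change of -1.96 ± 0.49 (adjusted p = 0.0295). The value of 156 CPM was that of SLE-sham replicate 6, and without it the log2 fold change was -0.83 (0.428). APOA1, the main protein of HDL, had 0.49 ± 0.15 (0.0973). Of 25 tested members each, none passed in edgeR for lipogenesis or cholesterol synthesis, with medians of -0.02 and 0.05. At an unadjusted p under 0.05 there were 4 and 2 members, and DESeq2 passed 1 and 0 on all pigs and 2 and 1 on the 19 pigs. FASN, the fatty acid synthase, had 0.04 ± 0.28 (0.98), and the desaturase SCD had -0.31 ± 0.23 (0.671).

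Among transporters of the bile canaliculus, ABCB4, the flippase that moves phosphatidylcholine into bile, was lower in MLE-sham (chromosome 9, 93171371 to 93262124). MLE-sham pigs had 41.1, 55.6 and 82.6 CPM and SLE-sham pigs 76, 114 and 313 CPM, and 8 of 10 SLE-sham pigs exceeded all MLE-sham pigs. The log2 fold change was -1.34 ± 0.30 (adjusted p = 0.0111), and -1.66 without the 5 pigs of unshared numbers (0.0152). It was the single member past the threshold of the 14 tested on the list of bile acid transport, where the median was -0.11 and DESeq2 on the 19 pigs passed 4. The bile salt export pump ABCB11 had 216, 354 and 516 CPM in MLE-sham and 379, 557 and 757 CPM in SLE-sham (-0.61 ± 0.18, 0.075). The basolateral exporter subunits SLC51A and SLC51B had -2.14 ± 0.63 (0.0807) and -0.99 ± 0.34 (0.167), and the uptake carrier SLC10A1 had -0.13 ± 0.17 (0.857).

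ABCG5, which with ABCG8 exports sterols including plant sterols, had 74.4, 84.4 and 147 CPM in MLE-sham and 91.9, 135 and 162 CPM in SLE-sham. The log2 fold change of -0.51 ± 0.14 just passed (adjusted p = 0.0493) and was lost in 16 of 19 leave-one-out fits, and in the fit with RLE scaling (0.0512). The groups overlapped, with 1 SLE-sham pig above all MLE-sham pigs. ABCG5 overlaps DYNC2LI1 on the opposite strand, which was itself lower (-0.91, 0.00266), and the library kit did not keep strand, so reads of the 2 genes cannot be told apart where they overlap. The same holds for APOA4, SERPINF1, HAO2, CYP7A1 and ITIH4, each of which overlaps another annotated gene. ABCG8 had -0.33 ± 0.13 (0.272), and the other 14 of 15 tested members of the sterol efflux list did not pass in edgeR on all pigs, with a list median of -0.08. DESeq2 on the 19 pigs passed 5 of the 15, and at an unadjusted p under 0.05 in edgeR 6 were lower and 1 higher.

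None of 15 tested members of bile acid synthesis passed in edgeR, with 6 at an unadjusted p under 0.05, and DESeq2 passed 1 on all pigs and 4 on the 19 pigs. CYP7A1, the rate-limiting enzyme of bile acid synthesis, was barely detected in either group, at 0, 0.335 and 2.44 CPM in MLE-sham and 0, 0.497 and 2.74 CPM in SLE-sham. Its log2 fold change was -0.78 ± 0.94 (adjusted p = 0.837), and its median in ENT-sham pigs was 5.56 CPM, or 4.1 CPM without replicate 2. FGF19, a hormone that represses CYP7A1 and that the authors place in both intestine and liver of pigs, had 0 counts in all 19 libraries. LDHB and XAF1, members of other lists, also had 0 counts. Whether such a 0 comes from the annotation or the counting was not tested. The bile acid receptor gene NR1H4 had 0.05 ± 0.07 (0.875) and its target NR0B2 -0.21 ± 0.16 (0.714).

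Of the 38 tested genes on the list of gluconeogenesis and glucose metabolism 3 passed, all enzymes of glucose use and lower in MLE-sham, with a list median of -0.01, and DESeq2 on the 19 pigs passed 9. PFKFB3, whose product drives glycolysis through fructose 2,6-bisphosphate, had 10, 16.5 and 32.2 CPM in MLE-sham and 27.3, 43.6 and 137 CPM in SLE-sham (log2 fold change -1.62 ± 0.35, adjusted p = 0.00929). Of the SLE-sham pigs 9 of 10 lay above all MLE-sham pigs. HK2, a hexokinase of muscle and activated immune cells, was low, with 31 counts over the MLE-sham and 219 over the SLE-sham libraries (-2.54 ± 0.55, 0.00929). PFKL, the liver phosphofructokinase, had a smaller difference, -0.40 ± 0.10 (0.0374), lost in 11 of 19 leave-one-out fits.

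Of 58 tested genes on the list of chemokines, cytokines and NF-kappaB 3 passed, all lower in MLE-sham and 1 of them, FAS, by more than 2-fold, with a median of -0.24 and 45 folds below 0. DESeq2 on the 19 pigs passed 10 members, again with no share over all genes beside the count. At an unadjusted p under 0.05 in edgeR 20 were lower and 1 higher. FAS, a death receptor, had 1.08, 1.27 and 3.34 CPM in MLE-sham and 1.45, 3.6 and 5.26 CPM in SLE-sham (log2 fold change -1.19 ± 0.22, adjusted p = 0.00154, and 0.0745 without the 5 pigs of unshared numbers). IKBKE, a kinase that acts on interferon and NF-kappaB signalling, had -0.95 ± 0.21 (0.0108), and NFKBIA, the NF-kappaB inhibitor that NF-kappaB itself induces, -0.59 ± 0.16 (0.0493). The cytokine and chemokine genes TNF (-0.06 ± 0.32, 0.972), IL1B (-0.86 ± 0.68, 0.712), CCL2 (-0.33 ± 0.29, 0.75) and CXCL8 (-1.57 ± 0.68, 0.341) did not pass.

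Of 41 tested interferon-stimulated genes 39 had a fold below 0 and their median was -1.03, but ISG20 alone passed in edgeR on all pigs, with 22 lower and none higher at an unadjusted p under 0.05 and 5 passing in DESeq2 on the 19 pigs. ISG20, an exonuclease induced by interferon, did not overlap, at 0.626, 1.89 and 3.31 CPM in MLE-sham and 3.84, 6.99 and 19.6 CPM in SLE-sham (log2 fold change -1.94 ± 0.46, adjusted p = 0.0197). Its adjusted p was 0.168 with the identifier number as a block and 0.0527 without MLE-sham replicate 4. The other members varied widely among pigs. ISG15 ranged from 9.78 to 382 CPM in SLE-sham and from 5.58 to 32.8 CPM in MLE-sham (-2.43 ± 0.94, 0.248), and RSAD2 reached 623 CPM in SLE-sham replicate 2, which also had the highest ISG15 and MX1. The list median was -0.49 without that pig and -0.23 with the identifier number as a block.

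Genes higher in MLE-sham were fewer, and 14 of the 20 called had a mean log2 CPM under 1. WDR86, a WD-repeat gene, had 23.4, 39.7 and 70 CPM in MLE-sham and 12.2, 18.7 and 29.9 CPM in SLE-sham (chromosome 18, 5853099 to 5900824). The log2 fold change was 1.15 ± 0.21 (adjusted p = 0.00109), and 7 of 9 MLE-sham pigs exceeded all SLE-sham pigs. It was 1.01 (0.0635) without the 5 pigs of unshared numbers. WDR86 overlaps NUB1 on the other strand. GFAP, an intermediate filament of stellate cells and glia, had 4.27, 6.97 and 11.8 CPM in MLE-sham and 0.878, 3.05 and 5.64 CPM in SLE-sham, and 8 of 9 MLE-sham pigs lay above all SLE-sham pigs. Its log2 fold change was 1.15 ± 0.31 (0.0455), a call lost in 15 of 19 leave-one-out fits and with the identifier number as a block (0.163). It was the single member past the threshold of 21 stellate and myofibroblast markers, whose median was 0.08. COL1A1 had -0.48 ± 0.35 (0.685) and ACTA2 0.05 ± 0.20 (0.966).

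CTH, which makes cysteine from cystathionine, had 92.2, 223 and 306 CPM in MLE-sham and 83.9, 121 and 192 CPM in SLE-sham (log2 fold change 0.75 ± 0.18, adjusted p = 0.0233). It was the single gene past the threshold on the lists of amino acid breakdown, with 40 tested and a median of 0.19, and of ATF4 targets, with 33 tested and a median of -0.05, where DESeq2 on the 19 pigs passed 7 and 3. At an unadjusted p under 0.05 in edgeR 10 members of the first list were higher and 0 lower, and 3 and 2 of the second. The adjusted p of CTH was 0.119 with the identifier number as a block. CLDN1, a tight junction protein, had 0.43 ± 0.11 (0.0286), the single gene past the threshold of 24 on the junction list, where 15 folds were below 0 and the median was -0.08, and DESeq2 on the 19 pigs passed 2. HLF, a clock-controlled transcription factor, had 0.56 ± 0.15 (0.0426), among 24 clock genes with a median of 0.20, of which DESeq2 on the 19 pigs passed 5, and the related DBP had 0.79 ± 0.23 (0.0744). Of the clock genes 7 were higher and 0 lower at an unadjusted p under 0.05 in edgeR.

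Other genes higher in MLE-sham were named after their values were seen. SERPINF1, a secreted antiangiogenic serpin, had 579, 759 and 1436 CPM in MLE-sham and 282, 525 and 743 CPM in SLE-sham (log2 fold change 0.71 ± 0.16, adjusted p = 0.0137), and it passed with the identifier number as a block (0.88, 0.000887). CORIN, a protease that activates natriuretic peptides, had 0.72 ± 0.18 (0.0281) and shares its position with a called uncharacterised gene, LOC102166909. HAO2, a peroxisomal hydroxyacid oxidase, had 0.43 ± 0.10 (0.0154). UCN3, a peptide of the corticotropin-releasing factor family, had 2.28, 3.93 and 5.08 CPM in MLE-sham and 1.08, 1.37 and 2.32 CPM in SLE-sham (1.24 ± 0.33, 0.0449), with 1 MLE-sham pig inside the SLE-sham range and a call lost in 14 of 19 leave-one-out fits.

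The remaining genes that the rule named were all lower in MLE-sham. ANKRD33, an ankyrin-repeat gene, had 0.638, 3.41 and 4.78 CPM in MLE-sham and 2.05, 7.89 and 33.4 CPM in SLE-sham (log2 fold change -2.09 ± 0.44, adjusted p = 0.00929). FNDC5, the precursor of irisin, had 9.75, 19.8 and 44.8 CPM against 27, 63 and 99.8 CPM (-1.40 ± 0.30, 0.00929). TNC, a matrix glycoprotein of injured tissue, had -1.26 ± 0.31 (0.0239) and was the single member past the threshold of 50 collagen and matrix genes, whose median was -0.10 (4 in DESeq2 on the 19 pigs). The phosphodiesterase gene GDPD2 had -1.36 ± 0.34 (0.0295), the putative lysolipid transporter gene SPNS3 -1.46 ± 0.33 (0.0124) and the calcium pump gene ATP2B3 -1.75 ± 0.47 (0.0486). ATP2B3 lost its call in 13 and GDPD2 in 7 of 19 leave-one-out fits, and TNC and ATP2B3 did not pass with the identifier number as a block (0.129 and 0.168).

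SOX9, a factor of biliary cells, had 2.24, 6.64 and 8.13 CPM in MLE-sham and 3.37, 7.81 and 11.9 CPM in SLE-sham (log2 fold change -0.29 ± 0.31, adjusted p = 0.815). TGFB1, the profibrotic cytokine, had -0.05 ± 0.14 (0.944), with wide overlap. MMP7, a matrix protease of injured bile ducts, was at 3.65, 12.1 and 15.4 CPM in MLE-sham and 9.86, 20.4 and 29.8 CPM in SLE-sham, and 8 of 10 SLE-sham pigs exceeded all MLE-sham pigs. Its log2 fold change of -0.88 ± 0.57 did not pass when all 60 pigs shared an estimate of the spread (0.617), but it passed in fits to the 19 pigs alone, with an adjusted p of 0.0495 in edgeR and 0.00413 in DESeq2. MMP7 was at 226 CPM in ENT-sham replicate 2 and at 2.5 to 9.92 CPM in the other ENT-sham pigs, and without the matching libraries its adjusted p was 0.08.

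In all, 46 gene lists were examined, 17 of which had at least 1 member past the threshold. The other 29 held 695 tested members, none past the threshold in edgeR. Of these members 68 were higher and 52 lower in MLE-sham at an unadjusted p under 0.05, and DESeq2 passed 13 of them on all pigs and 47 on the 19 pigs. They included the P450 enzymes, with a median of 0.06 over 37 members, phase II conjugation (0.10 over 24), NRF2 and glutathione genes (-0.13 over 33), the urea cycle (0.19 over 16) and coagulation and complement factors (0.17 over 48). Acute-phase proteins had a median of 0.24 over 30 members, with SERPINA1 at 0.76 ± 0.21 (adjusted p = 0.0612). At an unadjusted p under 0.05 in edgeR 8 acute-phase members were higher and 1 lower, and 9 and 0 of the coagulation and complement factors. Immediate-early and heat-shock genes, which respond to handling of tissue, had a median of -0.22 over 32 members, and cell cycle genes of -0.11 over 45.

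**Figure D4:**
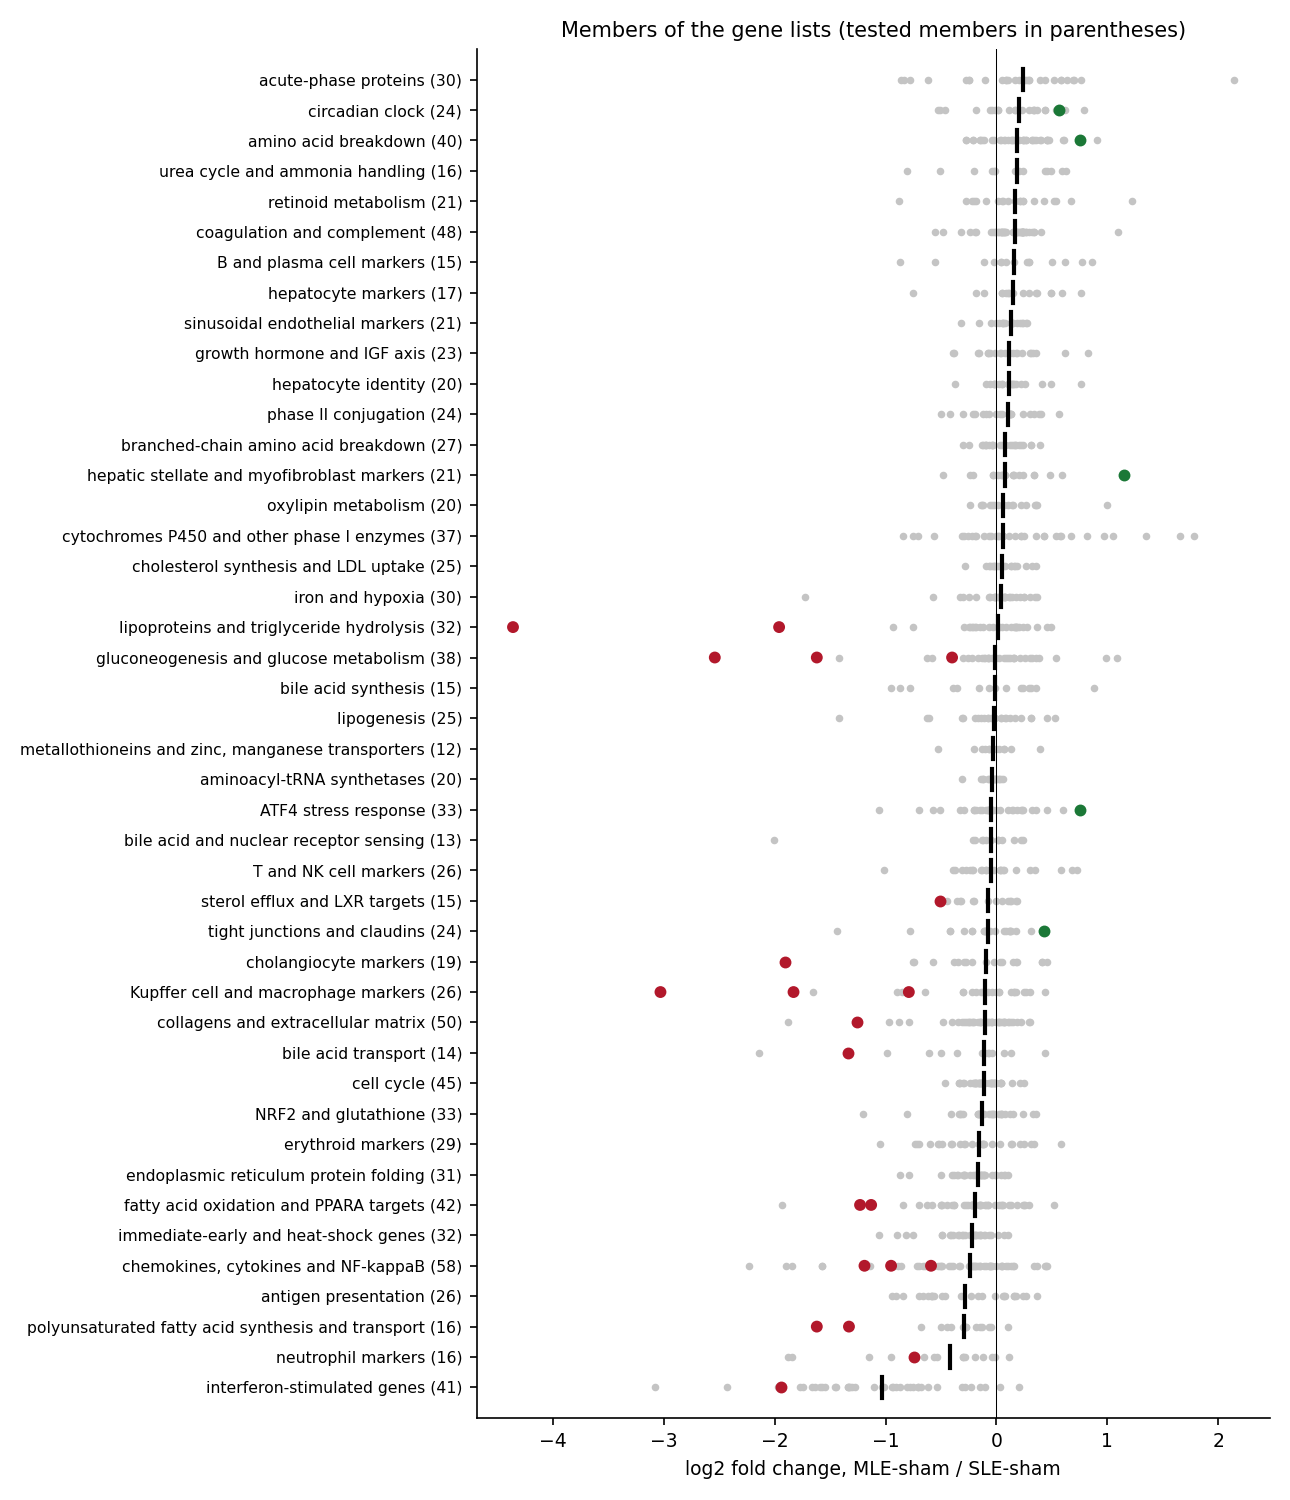
Log2 fold change of MLE-sham over SLE-sham (x axis) for every tested member of 44 gene lists (rows, ordered by median, tested members in parentheses), without the mitochondrial and Y-linked lists. Coloured points passed an adjusted p of 0.05, red lower and green higher in MLE-sham, and bars are medians. Interferon-stimulated genes have the lowest median, -1.03, and acute-phase proteins the highest, 0.24.

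Levels in the tube-fed ENT-sham pigs are set beside both PN groups, and both comparisons with ENT-sham share those 12 pigs and use the same PN pigs as above. ENT-sham replicate 2 had 9.31 CPM of LGALS3, against 0.312 to 1.58 CPM in the other 11 pigs, and 71 CPM of SPP1, against 8.73 to 30 CPM. With all 12 pigs LGALS3 had a log2 fold change of 0.12 in MLE-sham over ENT-sham (adjusted p = 0.902) and of 3.97 in SLE-sham over ENT-sham (9.02e-10), and without the matching libraries 1.18 ± 0.46 (0.0581) and 5.03 ± 0.41 (7.47e-14). SPP1 had 0.60 (0.131) and 2.51 (8.11e-10) with all pigs, and without them it passed in both PN groups, at 0.99 ± 0.25 (0.00237) and 2.90 ± 0.25 (3.44e-13). MMP7 was moved most, since the mean of ENT-sham was 23.4 CPM with replicate 2 and 4.97 CPM without it. Its log2 fold change over ENT-sham turned from -1.13 (0.142) to 1.12 ± 0.27 (0.00146) in MLE-sham and from -0.25 (0.77) to 2.0 ± 0.26 (2.42e-08) in SLE-sham. The genes that follow kept their side of the threshold and their direction where they passed, and each value with all 12 pigs stands before that without the matching libraries. GPNMB was at 0.37 (0.311) and 0.52 ± 0.24 (0.105) in MLE-sham, and at 2.20 (4.74e-10) and 2.36 ± 0.24 (3.28e-11) in SLE-sham. LPL had 0.01 (0.997) and 0.48 ± 0.80 (0.712) in MLE-sham, and 4.37 (2.21e-08) and 4.85 ± 0.61 (9.32e-09) in SLE-sham. The phospholipid transporter gene ABCB4 had -0.02 (0.967) and 0.12 ± 0.27 (0.806) in MLE-sham, and 1.32 (0.000132) and 1.46 ± 0.27 (2.52e-05) in SLE-sham. CD36 had 0.09 (0.867) and 0.21 ± 0.29 (0.653) in MLE-sham, and 1.71 (1.41e-06) and 1.83 ± 0.28 (4.85e-07) in SLE-sham. These 4 genes thus passed over ENT-sham in SLE-sham and not in MLE-sham. WDR86 was lower in both PN groups than in ENT-sham, by -0.53 (0.0468) and -0.59 (0.0217) in MLE-sham, and by -1.68 (1.79e-09) and -1.74 (6.15e-10) in SLE-sham. GFAP was higher in MLE-sham than in ENT-sham, by 1.57 (5.08e-05) and 1.56 (6.88e-05), while its SLE-sham values were 0.42 (0.296) and 0.41 (0.309). TNC was lower in MLE-sham than in ENT-sham, by -1.05 (0.00701) and -1.08 (0.00685), while its SLE-sham values were 0.21 (0.609) and 0.18 (0.669).

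The same diets were compared in other pigs, with ligated bile ducts, where 60 genes were called between MLE-BDL and SLE-BDL (0.370%). Of the 75 genes called in sham pigs, 61 had the same sign in BDL pigs, against 55.0% of all genes, and 6 were called there. A test of the difference between the diet effects in sham and BDL pigs passed for 43 genes of the table (0.265%) at any fold change, and for 8 of the 75. Since the 75 were chosen for a large difference in sham pigs, smaller values in other pigs follow from that choice in part, and nothing is read from the count of 8. Without the 5 pigs of unshared numbers it passed for 4 genes of the table, among them FAM20A (1.60, adjusted p = 0.00298), ITIH4 (1.93, 0.00578) and SERPINF1 (1.37, 0.00578). LGALS3 (-2.76, 0.0924), LPL (-3.42, 0.0993), TREM2 (-3.05, 0.216), FAS (-1.38, 0.0993), WDR86 (1.40, 0.0762), HP (2.22, 0.0762), CNTFR (-1.21, 0.0866) and CLDN1 (0.59, 0.192) did not pass there.

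LGALS3 was among the 8, with a log2 fold change of -3.85 in sham and -0.50 in BDL pigs and a difference of -3.35 ± 0.64 (adjusted p = 0.00689). Its mean level was 1.65 CPM in MLE-sham, 23.9 in SLE-sham, 18.3 in MLE-BDL and 25.8 in SLE-BDL. LPL had a difference of -3.73 ± 0.81 (0.021), TREM2 of -3.59 ± 0.80 (0.0242), FAS of -1.56 ± 0.31 (0.00751) and WDR86 of 1.53 ± 0.30 (0.00689). Of the 4 PN groups MLE-sham had the lowest mean of LGALS3, LPL, TREM2 and FAS and the highest of WDR86, which was at a mean of 42.2 CPM in MLE-sham, 19 in SLE-sham, 18.1 in MLE-BDL and 23.6 in SLE-BDL. GPNMB and SPP1 had differences of -1.50 ± 0.37 (0.0518) and -1.49 ± 0.42 (0.11), which did not pass with all pigs but passed without the matching ENT libraries (0.0258 and 0.032). CLDN1 passed with 0.64 ± 0.15 (0.0438).

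**Figure D5:**
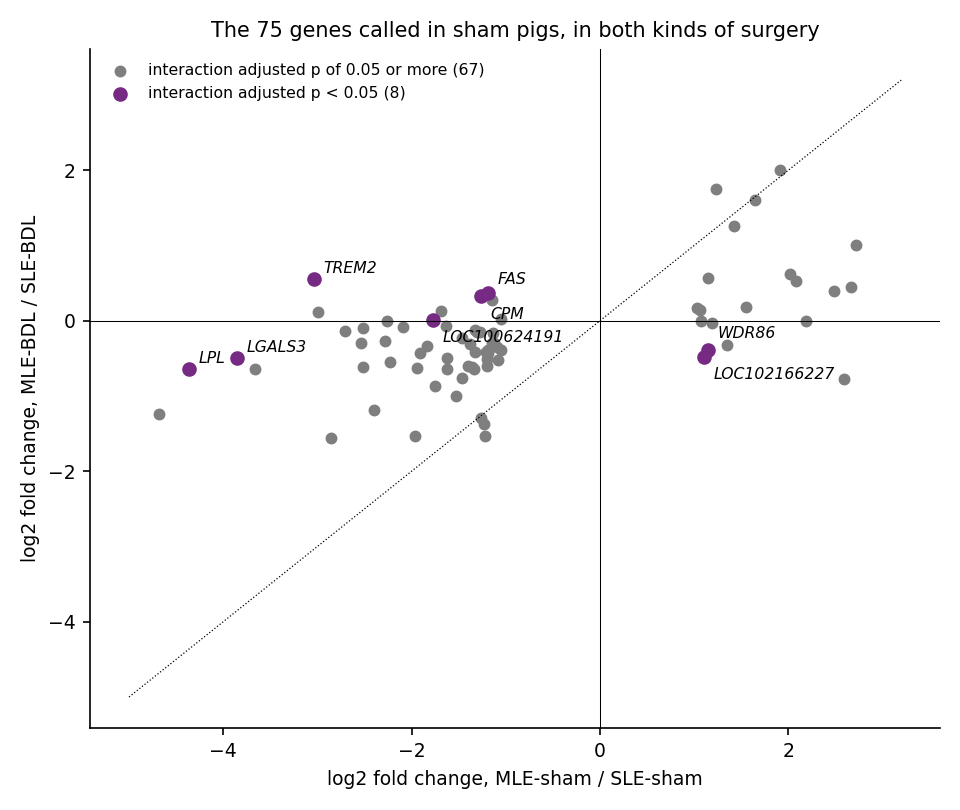
Log2 fold change of MLE over SLE in sham pigs (x axis) and in BDL pigs (y axis) for the 75 genes called in sham pigs. The dotted line marks equal values, and purple points are the 8 genes whose 2 values differed at an adjusted p under 0.05. LGALS3 lies at -3.85 and -0.50, and WDR86 on the other side at 1.15 and below 0. The point named CPM is the carboxypeptidase M gene.

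Of the 5 genes with the smallest adjusted p in that test of the difference, 4 had not passed in sham pigs. FAM20A, a pseudokinase of the secretory pathway, had a log2 fold change of 0.38 (adjusted p = 0.336) in sham and -1.27 (1.13e-05) in BDL pigs, a difference of 1.65 ± 0.24 (5.1e-05). The acute-phase genes ITIH4 and HP had 0.70 (0.105) and 0.69 (0.315) in sham and -1.08 (0.0073) and -1.63 (0.00405) in BDL pigs, with differences of 1.78 ± 0.31 (0.00311) and 2.32 ± 0.42 (0.00388). ITIH4 in sham pigs passed with the identifier number as a block (0.95, 0.0285). CNTFR, the receptor of ciliary neurotrophic factor, had -0.08 (0.93) and 1.26 (1.66e-05), a difference of -1.34 ± 0.25 (0.00685).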

How the data were processed

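RNA was extracted from whole liver, poly(A) libraries were made with a kit that does not keep strand, and paired reads were sequenced. The deposited table holds raw read counts per gene. Per the submitters' processing notes the authors aligned reads to Sscrofa11.1 with HISAT2 2.0.5, added transcripts with StringTie 1.3.3 and made the counts with featureCounts 1.5.0-p3. Of 30359 features, 24 had no gene name and were left out (0.0084% to 0.0407% of a library). Counts were filtered with filterByExpr over 6 groups, scaled by TMM and fitted to all 60 pigs with edgeR 4.0.16 (glmQLFit robust, glmQLFTest), with Benjamini-Hochberg adjustment over 16210 genes. Log2 CPM used a prior count of 2, and errors on fold changes are standard errors from the test statistic. Alternatives used DESeq2 1.42.0, other filters, scalings, blocks and sets of pigs. The tests were tried on simulated counts first. Genes were named by rule: per direction the 15 largest fold changes among called genes that had a symbol other than LOC and averaged 1 or more in log2 CPM, per list the 4 smallest adjusted p past the threshold, then CYP7A1, FGF19, SOX9, MMP7 and TGFB1, and 5 genes from the test of the difference between surgeries. The comparison, its gene lists and these rules were chosen with earlier results of these data known. Replicates are separate pigs by their identifiers, apart from the shared identifier noted above. Results of some genes are not reported here.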

Additional observations from a re-analysis of the deposited data

Results flagged for a closer look

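Several of the named genes had 1 pig far from the others of its group on the log2 scale, by Dixon's criterion at the 95% level. Among 70 sets of values tested there were 8 such pigs, where chance alone flags about 1 in 20. In SLE-sham replicate 6 APOA4 was at 156 CPM and PFKL at 140 CPM, both the highest of the group, and in SLE-sham replicate 9 ABCG5 was lowest, at 91.9 CPM. MLE-sham replicate 2 was the highest of its group for FAS, at 3.34 CPM, and for HK2, at 0.705 CPM. ANGPTL4 was highest in MLE-sham replicate 7, at 61.7 CPM, ANKRD33 lowest in MLE-sham replicate 9, at 0.638 CPM, and ISG20 lowest in MLE-sham replicate 4, at 0.626 CPM.

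The diet effect differed between sham and BDL pigs, by the edgeR test of that difference, in 10 of the named genes. The log2 fold change of MLE over SLE in sham minus that in BDL pigs was negative for LGALS3 (-3.35), LPL (-3.73), TREM2 (-3.59), FAS (-1.56) and CNTFR (-1.34), and positive for WDR86 (1.53), FAM20A (1.65), ITIH4 (1.78), HP (2.32) and CLDN1 (0.64). Of these 10 only FAM20A (1.60, adjusted p = 0.00298) and ITIH4 (1.93, 0.00578) passed the same edgeR test without the 5 SLE-sham pigs of unshared identifier numbers.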

How the results depend on the processing

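The count of 75 called genes became 162 at any fold change and 114 with DESeq2 on the 19 pigs (60 of the 75 among them). It was 44 with the shared identifier numbers alone and the number as a block (23 of the 75). Without the SLE-sham pigs of unshared numbers, a setting chosen after seeing the data, the count was 26. It was 90, with all 75 among them, without ENT-sham replicate 2 and ENT-BDL replicate 1. Leaving out 1 pig gave 47 to 93 genes, with 47 without MLE-sham replicate 3 and without MLE-sham replicate 5. The 43 genes whose diet effect differed between surgeries became 118 with DESeq2 on all pigs, 4 without the SLE-sham pigs of unshared numbers, 21 with EIF1AY as a covariate, 66 without both SLE-sham pigs that share an identifier and 81 without ENT-sham replicate 2 and ENT-BDL replicate 1, whose counts nearly match. Leaving out 1 pig gave 24 to 69, with 25 without SLE-sham replicate 1, 24 without SLE-sham replicate 4 or MLE-sham replicate 4, 27 without MLE-sham replicate 9, and 65 to 69 without MLE-sham replicate 6, SLE-sham replicate 2 or SLE-sham replicate 9. Every component distance kept its side of the threshold, with 34.2 to 38.6 when 1 pig was left out. The causes were not tested. Same-numbered replicates of the 2 groups did not deviate together (9 pairs, correlations from -0.121 to 0.189, 1 MLE-sham pig closest to its own number), so they share only a number, and the fit with the replicate number as a block called 70 genes, 61 of them among the 75. Pigs of the same identifier number correlated at a mean of 0.145 over 11 pairs, against -0.0202 over 79 other pairs. Of 1343 recomputed values of 41 named genes 1107 kept their side of the threshold, 230 no longer passed and 6 newly passed, and none of the passing genes changed sign. Of 33 named genes past the threshold, 9 passed in every alternative that tested them: ABCB4, ANKRD33, CD36, GPNMB, LGALS3, LPL, PFKFB3, SMPDL3A and SPP1. Of 93 list medians 1 moved by more than the spread between pigs, that of interferon-stimulated genes. Differences in genes under a few CPM, such as TREM2, HK2 and TM4SF19, rest on few counts.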
